A study of Mus musculus with 9 samples.

Results

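Rasgef1b, Fkbp15, Slc31a2, Chn2, Fam13c, Phyhipl, Mink1, Pank4 and Zfp236 are 9 mouse genes at which the transcription factor SOX6 covered a stretch of several kilobases in oligodendrocytes (OLs). They were chosen for holding between 5 and 12 kb of SOX6 peaks, in the OL list of the line EpiSC5, within the gene body plus 10 kb on each side. They are 9 of 21887 protein-coding genes. The range holds 11 genes, and the remaining 2, Chrne and 4930544D05Rik, held the same 6.60 kb of peaks as their neighbour Mink1. The OL SOX6 values below therefore describe the choice and carry no test. Just inside the range, Rasgef1b had 11.001 kb, and Pank4 and Phyhipl had 5.93 and 5.79 kb. Just outside it, Mbp had 17.2 kb above and Hes5 4.44 kb below.

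The cells were oligodendrocyte progenitor cells (OPCs) and OLs made in culture from the mouse epiblast stem cell lines EpiSC5 and 129O1, which derive from the strains 129SvEv and 129S1/SvImJ. No genotype change or compound distinguished the groups. OPCs were grown in 20 ng/mL bFGF and 20 ng/mL PDGFA without SHH and had been sorted for CD140a and NG2. The sample labels list the same amounts of bFGF and PDGFA for the OL samples. OLs were intermediate cells positive for the O1 antigen. Acetylation of histone H3 at lysine 27 (H3K27ac) was mapped by ChIP-seq in OPC and OL of both lines, and SOX6 in OPC of both lines but in OL of EpiSC5 alone. That gives 7 peak lists from 9 samples. The remaining 2 are inputs and were not analysed here. The 2 lines served as replicates with 1 library each, so a p-value reflects just the spread among these samples, which may be technical. The OL SOX6 list held 3893 peaks, against 22876 in 129O1 OPC and 15487 in EpiSC5 OPC. Read depth is unknown from peak lists.

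SOX6 is a SoxD-family protein that binds the minor groove of DNA at short motifs of the AACAAT type and is known in this lineage for its part in specifying progenitors and in the timing of their maturation. It has no activation domain of its own and works with partner factors. H3K27ac marks active promoters and enhancers, so the overlap of both shows which SOX6 peaks sat in acetylated chromatin.

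Marker genes were used to check the labelled states. H3K27ac widened in OL at 7 of 8 myelin genes tested and at 7 of 8 immature oligodendrocyte genes. It narrowed at 4 of 10 OPC genes, Pdgfra among them. Over all genes tested, 12.5% widened and 16.4% narrowed. Of the markers of other cells, 0 of 6 astrocyte, 0 of 4 neuron and 0 of 1 pluripotency genes tested were called by limma, while at an unadjusted p under 0.05 there were 1 higher and 1 lower, 1 lower, and 1 lower. Among 3 microglial genes tested, Csf1r widened. Summed astrocyte coverage (129O1, then EpiSC5) was 30.8 and 24.8 kb in OPC, and 44.4 and 20.1 kb in OL. Summed neuronal coverage was 13.8 and 11.6 kb in OPC and 16.9 and 10.2 kb in OL. Summed microglial coverage was 5.79 and 5.13 kb in OPC and 8.16 and 5.16 kb in OL. In the same order of lists, 2, 2, 1 and 1 of 5 microglial genes had 0 kb, as did 1, 1, 2 and 1 of 5 neuronal genes. The part of other cells in the results below was not tested.

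The longest runs of OL SOX6 peaks at these genes mostly lay around and beyond their 3′ ends. Joining peaks across gaps of up to 5 kb gave 7 separate stretches for the 9 genes, with 90 peaks and 61.5 kb covered. Fkbp15 and Slc31a2 share 1 stretch, Fam13c and Phyhipl share another, and the coverage counted for Zfp236 belongs to the stretch at its neighbour Mbp. Of the 8 genes whose strand is known, 7 had part of the stretch past their 3′ end, and Pank4 was the exception. These 7 genes lie at 5 stretches, and the same count for other runs of OL SOX6 peaks is not given here. Most of the stretch lay inside the body for 3 genes, Slc31a2, Fam13c and Pank4. The count for 3′ ends was also 7 when peaks were joined across 2 or 10 kb. That for the body was 2 at 2 kb and 3 at 10 kb. Coordinates are mm10.

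Rasgef1b encodes a guanine nucleotide exchange factor for the small GTPase Rap2 and lies on the minus strand of chromosome 5, from 99217420 to 99252927. Its stretch of 17 peaks ran from 99208296 to 99228268 and covered 10.1 kb, of which 72.8% lay past the 3′ end and 27.2% in the body. A single peak of 4902 bp, the fifth widest of the whole OL list, lay wholly downstream of the gene. The authors' fold enrichment for it was 15.1, while the median of the 17 peaks was 6.34.

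Fkbp15, which encodes an FK506-binding-domain protein of early endosomes that associates with the actin-regulating WASH complex, and Slc31a2, which encodes a copper transporter of endosomes and lysosomes, point towards each other on chromosome 4. Fkbp15 (minus strand) spans 62300342 to 62360596 and Slc31a2 (plus strand) 62280393 to 62298412. Their shared stretch ran from 62291077 to 62305023, with 5 peaks and 8.52 kb, and its bounds contain the 3′ ends of both, each in a gap between peaks. It lay 78.5% within Slc31a2 and 11.4% within Fkbp15. Most of it was a peak of 6239 bp, second in width only to a peak of 6527 bp on chromosome 17, in a list whose median width was 245 bp.

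Chn2, which encodes a chimaerin, a diacylglycerol-responsive GTPase-activating protein for Rac, spans 54039932 to 54301812 on the plus strand of chromosome 6. Its stretch of 12 peaks, from 54300961 to 54313765, covered 7.86 kb and lay 97.3% past the 3′ end. The whole of it fell inside the body of the noncoding RNA gene 9130019P16Rik on the opposite strand. At the other end of the gene, 262 kb away, the 250 bases before the first annotated start had no OL SOX6.

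Fam13c, a paralogue of Fam13a whose function is little known, and Phyhipl, related to the phytanoyl-CoA hydroxylase interacting protein, also converge, and their 3′ ends overlap on chromosome 10. Fam13c (plus strand) spans 70439972 to 70558736 and Phyhipl (minus strand) 70557686 to 70599291. The stretch between 70552571 and 70563158 held 8 peaks and 5.26 kb, of which 72.7% lay in Fam13c and 44.3% in Phyhipl. Its widest peak, of 2081 bp from 70556500 to 70558580, contained the 3′ end of Phyhipl and ended just before that of Fam13c.

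Mink1 encodes a Ste20-type kinase that acts downstream of Rap2 and spans 70561580 to 70614482 on the plus strand of chromosome 11. Its 13 peaks from 70608765 to 70623362 covered 6.60 kb, with 84.7% past the 3′ end. They ran over Chrne, which encodes a subunit of the muscle acetylcholine receptor and held 3651 bp of the covered bases, and over 4930544D05Rik, with 1044 bp.

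Pank4, a pantothenate-kinase-like gene of coenzyme A metabolism on the plus strand of chromosome 4 (154964123 to 154980940), had its 12 peaks from 154960859 to 154977144. They covered 5.93 kb, 66.0% of it in the body and 34.0% upstream of the start, and stopped 3.80 kb before the 3′ end. The upstream part covered 1267 bp of Hes5, an effector of Notch signalling. The peaks here were narrow, at most 874 bp wide.

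Zfp236, a zinc finger gene on chromosome 18 (82593593 to 82692915), had no OL SOX6 in its body. All of its 6.20 kb came from 3 peaks in the 10 kb on its Mbp side. They are the last of 23 peaks, covering 17.2 kb from 82554219 to 82591147, that run over the distal part of Mbp, the gene of myelin basic protein. The map of peaks around each stretch shows these positions.

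**Figure D1:**
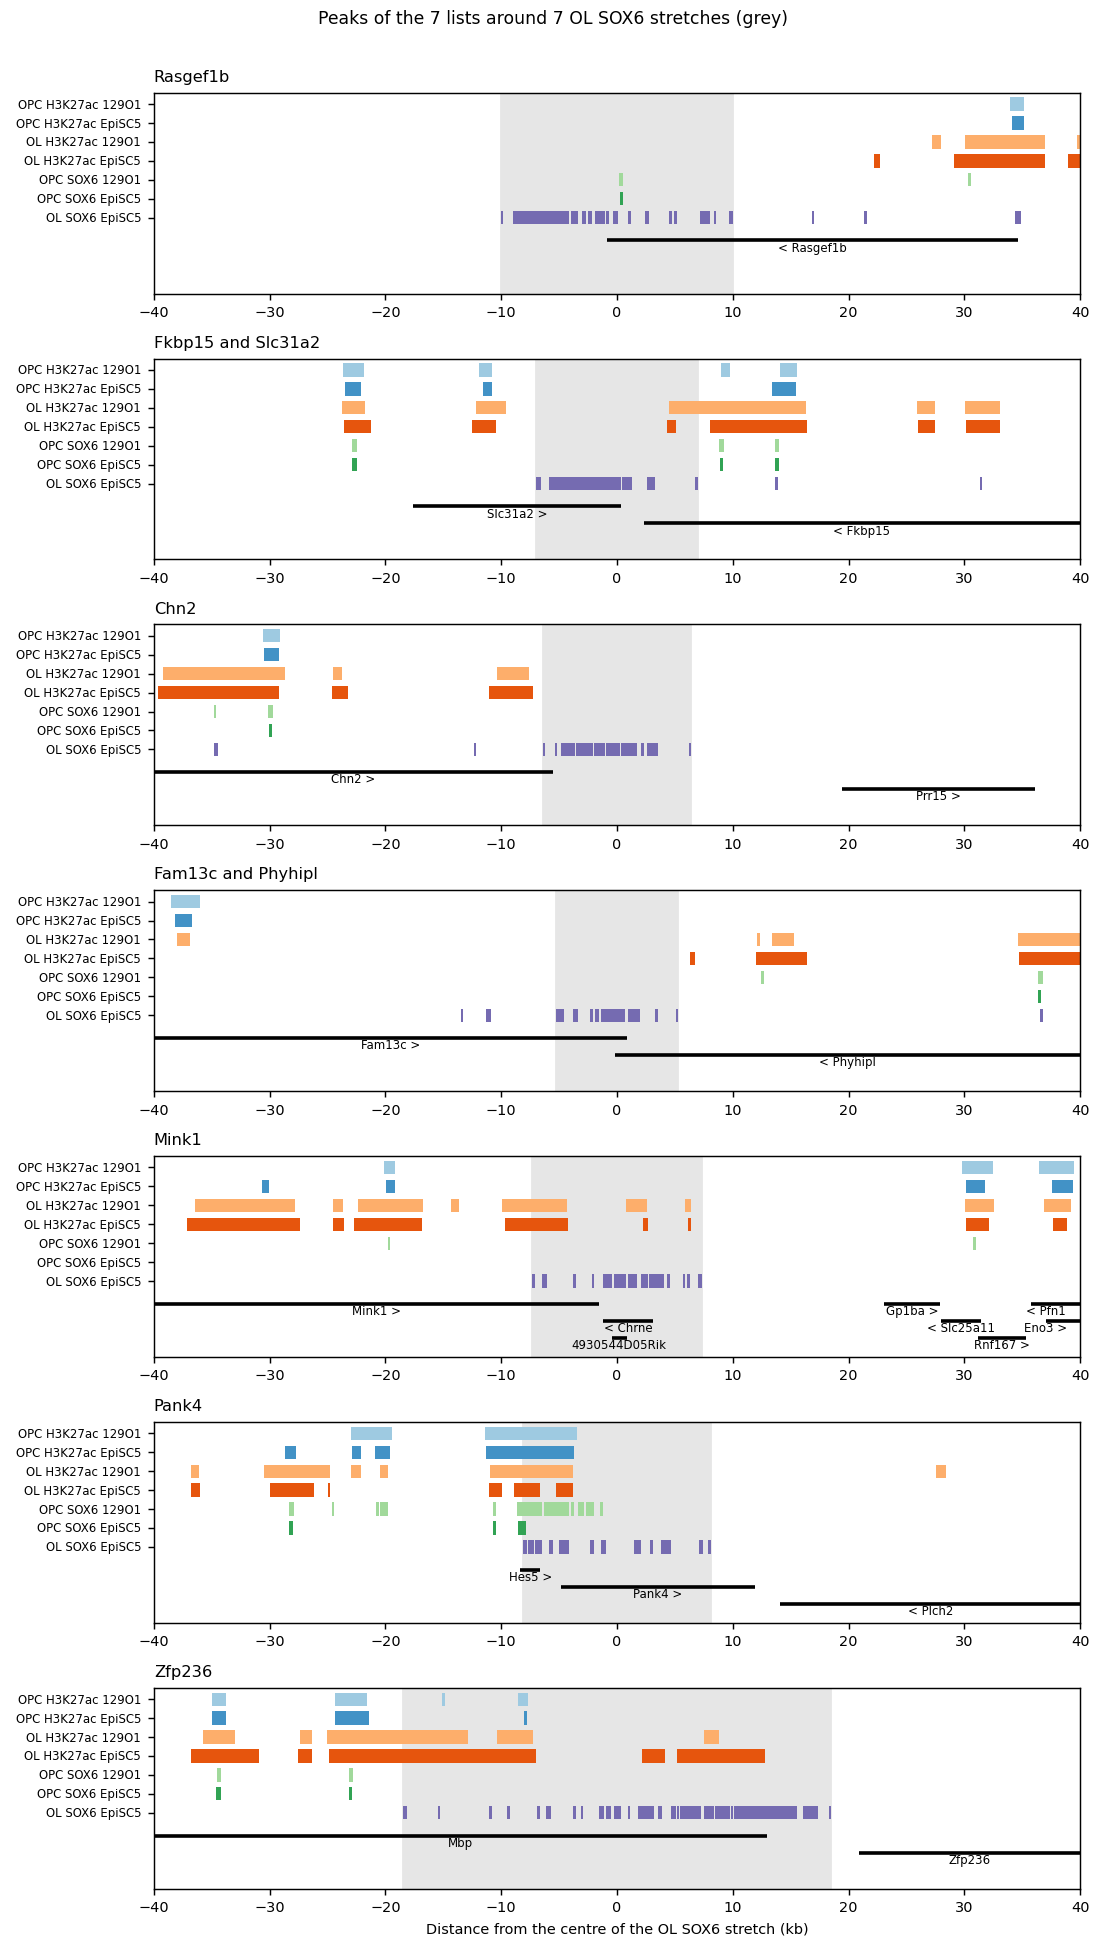
Peaks of the 7 lists (rows) by distance in kb from the centre of each OL SOX6 stretch (grey), with protein-coding genes as black lines and arrowheads for the strand where known. At Rasgef1b, Chn2, and Fam13c with Phyhipl, acetylation lies beside the grey stretch and no H3K27ac peak enters the SOX6-covered bases, whereas at Pank4 the stretch starts inside acetylated chromatin in all 4 H3K27ac lists.

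Most of the stretches were absent from the OPC SOX6 lists. Rasgef1b had 11.001 kb of SOX6 in OL, against 0.61 kb in OPC of 129O1 and 0.261 kb in OPC of EpiSC5. Fkbp15 had 9.19 kb in OL and 1.01 and 0.593 kb in OPC, in the same order of lines. Slc31a2 had 8.52 kb in OL and 0.889 and 0.669 kb in OPC. In these 3 genes OL exceeded both OPC lists, although the OL list as a whole covered 1.18 Mb and the OPC lists 8.11 and 5.37 Mb.

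Chn2 had 8.38 kb in OL and 2.12 and 1.66 kb in OPC. Fam13c had 7.27 kb in OL and 0.58 and 0.325 kb in OPC, and Phyhipl 5.79 kb in OL and 0.812 and 0.493 kb in OPC. The coverage of Mink1 was 6.60 kb in OL, 0.538 kb in OPC of 129O1 and 0 in OPC of EpiSC5. Zfp236 had 6.20 kb in OL and 0 in both OPC lists. Pank4 stood apart, with 5.93 kb in OL, 6.32 kb in OPC of 129O1 and 0.873 kb in OPC of EpiSC5, so the OPC lists of the lines differed there more than OL did from 129O1 OPC. With 1 OL list there is no replicate check on any of these differences.

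**Figure D2:**
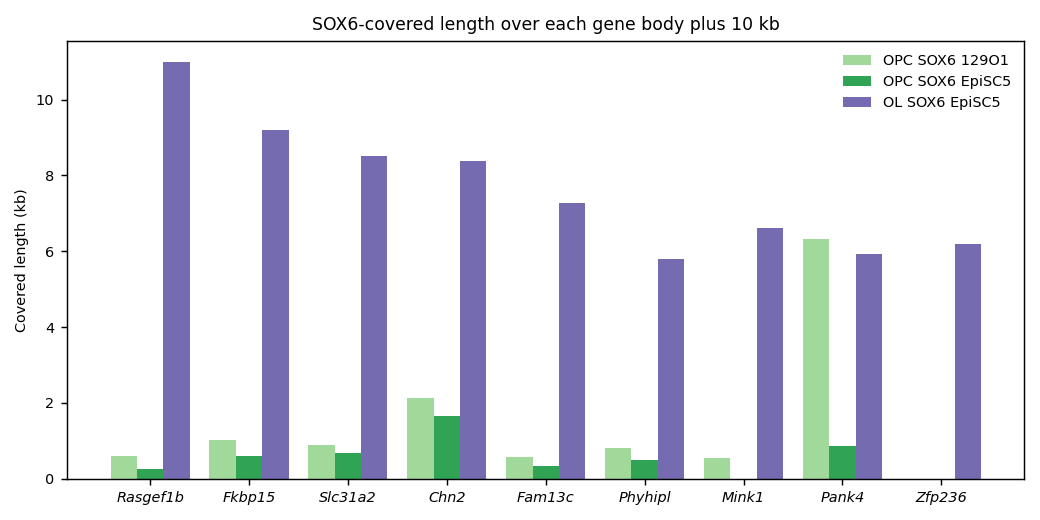
SOX6-covered length in kb (vertical axis) over the body plus 10 kb of each gene, with 1 bar per list. OL bars run from 5.79 to 11.001 kb because the genes were chosen on them, and the OPC bar that reaches that range is Pank4 in 129O1, at 6.32 kb.

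Within the stretches, 5.26% of the OL SOX6-covered bases lay in an OPC SOX6 peak of 129O1 and 0.39% in one of EpiSC5. Over all OL SOX6 peaks the shares were 43.0% and 29.8%. All of the overlap came from Pank4, where 54.6% and 4.05% of the covered bases were shared, and 6 of the 7 stretches had 0%. Rasgef1b had an OPC SOX6 peak of its own in both lines, 34.3 and 34.2 kb from the start and within the bounds of the stretch, in a gap that the OL peaks left uncovered.

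The stretches also lay largely outside acetylated chromatin. In OPC of either line 4.43% of their SOX6-covered bases fell in H3K27ac peaks, and in OL 11.9% (129O1) and 20.7% (EpiSC5). The shares for the whole OL SOX6 list were 57.8% and 55.3% in OPC and 65.1% and 62.9% in OL. Without the stretch at Mbp the values for the other 6 were 6.15% in both OPC lists, 11.96% in 129O1 OL and 7.52% in EpiSC5 OL.

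The stretches of Rasgef1b, Chn2 and of Fam13c with Phyhipl had 0% in all 4 H3K27ac lists. At Fkbp15 and Slc31a2 3.11% lay under OL acetylation of 129O1 and 0% in the other lists. At Mink1 the shares were 0% in both OPC lists, 35.0% in 129O1 OL and 18.9% in EpiSC5 OL. The stretch that Zfp236 borders had 0% in OPC, 11.9% in 129O1 OL and 54.5% in EpiSC5 OL. Pank4 alone was acetylated in all lists, with 45.9% in both OPC lists and in 129O1 OL, and 35.2% in EpiSC5 OL.

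Over the whole OL SOX6 list, longer runs of peaks had a smaller share of their bases in acetylated chromatin. Runs of peaks covering under 1 kb, 3039 in number, had 78.8% of their covered bases in OL H3K27ac of EpiSC5. Runs of 1 to under 3 kb, 44 in number, had 34.7%, and the 17 other runs of at least 3 kb had 16.5%. The stretches described here had 20.7% with the one at Mbp and 7.52% without it, so they stood above or below the other long runs depending on that stretch. Peaks are not replicates, and these shares carry no test.

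**Figure D3:**
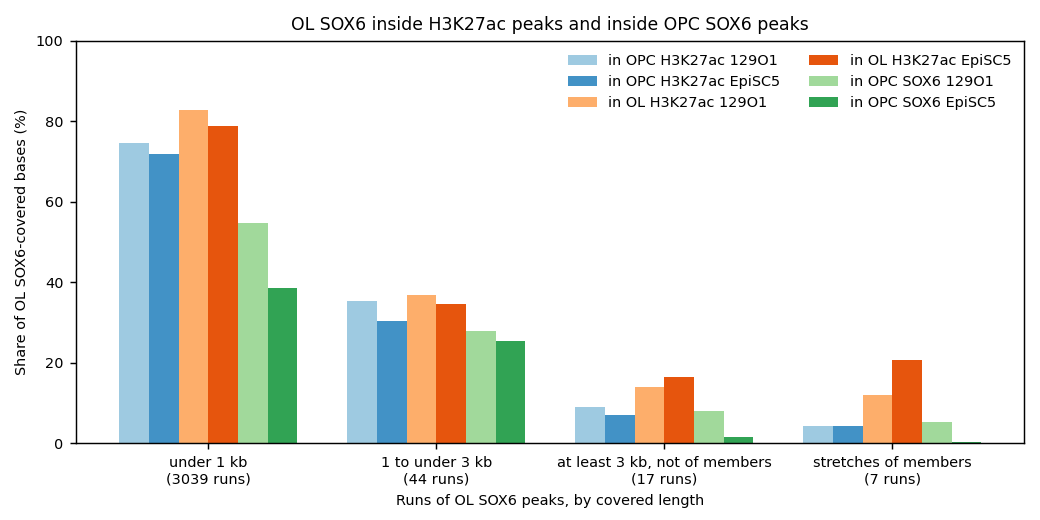
Share of OL SOX6-covered bases (vertical axis, in %) that lie inside peaks of each of the other 6 lists, for runs of OL SOX6 peaks grouped by covered length. The bars for OL H3K27ac of EpiSC5 fall from 78.8% in runs under 1 kb to 16.5% in other runs of at least 3 kb, and stand at 20.7% in the 7 stretches.

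Outside the stretches the same genes held scattered SOX6 peaks, and part of these lay in acetylated chromatin. Of 86 OL SOX6 peaks within the bodies plus 10 kb, 69 belonged to a stretch, and 9 of these overlapped OL H3K27ac of EpiSC5. The 17 outside the stretches included 8 that did, against 75.4% of all OL SOX6 peaks outside the 7 stretches. Of the OPC SOX6 peaks outside the stretches, 16 of 19 in 129O1 and 9 of 12 in EpiSC5 lay in chromatin that was acetylated in OL of EpiSC5. The same share over all OPC SOX6 peaks is not given here, so these counts have no background. The strongest OPC peak was in Chn2, 224 kb from its first start, and no OL SOX6 peak overlapped it. Its fold enrichment by the authors was 25.3 in OPC of 129O1 and 21.2 in OPC of EpiSC5.

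Unlike most of the SOX6-covered bases of the stretches, the starts of these genes were acetylated in OL. RefSeq gives 13 starts for 8 of the genes (none for Zfp236). The 250 bases before each lay in OL H3K27ac of both lines at 13 of the 13 and in OPC H3K27ac of both lines at 9. Of 32851 RefSeq promoters, 32.9% and 25.3% overlapped OL H3K27ac of 129O1 and EpiSC5, and 37.7% and 34.6% the OPC lists. OL SOX6 touched these 250 bases at 4 of the 13 starts, against 4.82% of all promoters. The genes were chosen on OL SOX6 over a window that holds these bases, so that contrast describes the choice. OPC SOX6 touched them at 4 in 129O1 and 1 in EpiSC5, against 10.7% and 5.48%. Peaks inside a gene are not counted here. An OL SOX6 peak had its summit 0.23 kb inside Fkbp15, and OPC SOX6 peaks theirs 0.90 kb (129O1) and 0.39 kb (EpiSC5) inside Phyhipl. The 6 promoters below are all those that overlap a SOX6 peak of any of the 3 lists. They are in lower case, 5′ to 3′ in gene orientation (GRCm38.p6), with capitals for the letters ACAANG and AACAAT on either strand.
Rasgef1b, chr5:99252928-99253177, minus strand: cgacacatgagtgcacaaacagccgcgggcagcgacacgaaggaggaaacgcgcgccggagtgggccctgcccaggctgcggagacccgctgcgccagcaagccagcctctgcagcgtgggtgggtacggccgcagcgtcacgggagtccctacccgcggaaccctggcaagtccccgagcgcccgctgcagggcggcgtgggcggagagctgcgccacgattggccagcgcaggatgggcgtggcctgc
Chn2, inner start, chr6:54264608-54264857, plus strand: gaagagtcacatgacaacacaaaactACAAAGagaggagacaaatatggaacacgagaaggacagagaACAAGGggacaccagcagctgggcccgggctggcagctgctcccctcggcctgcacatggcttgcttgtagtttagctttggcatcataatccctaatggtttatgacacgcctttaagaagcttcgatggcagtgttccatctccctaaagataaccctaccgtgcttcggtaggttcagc
Chn2, last start, chr6:54272572-54272821, plus strand: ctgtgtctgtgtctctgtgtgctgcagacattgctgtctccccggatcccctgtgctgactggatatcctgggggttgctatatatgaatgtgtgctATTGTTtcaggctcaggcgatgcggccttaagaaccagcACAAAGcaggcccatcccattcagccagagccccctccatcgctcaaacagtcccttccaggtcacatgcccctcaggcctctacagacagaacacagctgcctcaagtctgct
Fam13c, second start, chr10:70440660-70440909, plus strand: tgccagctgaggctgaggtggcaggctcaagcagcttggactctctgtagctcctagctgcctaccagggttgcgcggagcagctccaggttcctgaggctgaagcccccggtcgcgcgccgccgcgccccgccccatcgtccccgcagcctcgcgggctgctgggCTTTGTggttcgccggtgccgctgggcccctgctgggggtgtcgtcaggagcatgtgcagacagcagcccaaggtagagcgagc
Phyhipl, outer start, chr10:70599292-70599541, minus strand: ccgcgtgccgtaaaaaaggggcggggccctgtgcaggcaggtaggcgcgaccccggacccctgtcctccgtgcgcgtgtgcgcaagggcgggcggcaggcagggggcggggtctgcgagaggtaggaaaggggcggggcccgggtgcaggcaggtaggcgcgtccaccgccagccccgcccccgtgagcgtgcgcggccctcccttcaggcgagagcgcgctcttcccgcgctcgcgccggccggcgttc
Pank4, chr4:154963873-154964122, plus strand: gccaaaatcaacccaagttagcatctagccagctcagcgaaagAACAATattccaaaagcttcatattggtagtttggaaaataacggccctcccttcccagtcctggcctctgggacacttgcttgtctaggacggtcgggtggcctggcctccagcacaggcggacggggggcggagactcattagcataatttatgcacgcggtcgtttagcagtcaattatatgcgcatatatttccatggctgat

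The Rasgef1b promoter, with a GC content of 72.4%, held 224 bp of an OL SOX6 peak and neither motif. The inner Chn2 start held 226 and 189 bp of OPC SOX6 in 129O1 and EpiSC5, no OL SOX6, and 2 matches of ACAANG. The last Chn2 start lay wholly in an OL SOX6 peak (250 bp) and held 197 bp of OPC SOX6 in 129O1, with 1 match of each motif. It was acetylated in OL of both lines and in neither OPC list. The second Fam13c start held 224 bp of OPC SOX6 in 129O1 and 1 ACAANG, and the outer Phyhipl start 133 bp of OL SOX6 and neither motif. Pank4 held 168 bp of OL SOX6 and 250 bp of OPC SOX6 of 129O1, with 1 AACAAT. Of all the promoters, 36.3% hold ACAANG and 9.42% the other motif, and 4 of the 13 starts hold each. The motifs can overlap, and a match describes letters only.

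H3K27ac, which the rule for choosing the genes did not use, spread over most of them between OPC and OL. Covered length over the body plus 10 kb widened in OL at 6 of the 9 genes, against 12.5% of the 12459 genes tested, and narrowed at 0 (also 0 at an unadjusted p under 0.05), against 16.4%. In either direction 28.9% of all genes were called. Without scaling the lists, 12.6% widened and 9.19% narrowed, with the same 6 of the 9 wider. These 6, Mink1, Chn2, Rasgef1b, Phyhipl, Fkbp15 and Slc31a2, lie at 5 of the 7 stretches, and genes at a shared stretch also share part of their window. A gene was called at an adjusted p under 0.05 (limma, Benjamini-Hochberg over all genes tested) with the same sign in both lines. In bulk samples, a wider mark in each cell and more cells with the mark cannot be told apart.

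Mink1 rose from 3.53 kb (129O1) and 3.26 kb (EpiSC5) of H3K27ac in OPC to 30.8 and 30.04 kb in OL. On the scale of log2(kb + 1), after scaling the lists to equal totals, the change was 2.71 ± 0.16 (SE, n = 2 lines, limma adjusted p = 0.00195). Chn2 rose from 6.65 and 5.67 kb to 52.6 and 46.0 kb, a change of 2.68 ± 0.15 (limma adjusted p = 0.00195). In both genes each OL list stood far above both OPC lists. The covered part of Chn2 ended 1.22 kb (129O1) and 0.90 kb (EpiSC5) before its SOX6 stretch began.

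Rasgef1b rose from 1.19 and 1.07 kb to 8.76 and 10.5 kb, a change of 2.22 ± 0.18 (limma adjusted p = 0.00246). All of the acetylation in its body lay nearer the start than the 3′ end. Its widest OL peak spanned 2.29 kb before to 4.55 kb after the start in 129O1, and 2.28 kb before to 5.58 kb after it in EpiSC5. The nearest OL acetylation to its SOX6 stretch was 17.2 and 12.2 kb away in the same lines.

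Phyhipl rose from 2.04 and 1.86 kb to 10.0 and 12.4 kb, a change of 1.93 ± 0.18 (limma adjusted p = 0.00293). Fkbp15 rose from 4.65 and 4.40 kb to 19.6 and 17.5 kb, a change of 1.70 ± 0.17 (limma adjusted p = 0.00342). Unlike in Rasgef1b, its widest OL peak, of 11827 bp in 129O1, lay towards the 3′ end and reached 2.46 kb into the bounds of the SOX6 stretch. In EpiSC5 the widest, of 8428 bp, lay 1.04 kb outside those bounds, and a separate peak of 854 bp lay within them. Slc31a2 rose from 3.75 and 2.14 kb to 10.4 and 7.66 kb, a change of 1.26 ± 0.17 (limma adjusted p = 0.00684). Part of that length belongs to Fkbp15: within the body of Slc31a2 it was 1.15 and 0.764 kb in OPC and 2.57 and 2.11 kb in OL.

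The other three genes were not called. Fam13c had 6.88 and 5.06 kb in OPC and 12.8 and 7.05 kb in OL, a difference of 0.48 ± 0.20 (limma adjusted p = 0.117). Zfp236 had 3.65 and 2.68 kb in OPC and 3.64 and 5.54 kb in OL (0.31 ± 0.22, limma adjusted p = 0.311), so the groups overlapped and the lines differed in sign. Pank4 had 7.93 and 7.58 kb in OPC and 7.24 and 4.84 kb in OL, a difference of −0.46 ± 0.21 (limma adjusted p = 0.137). Most of that length lay outside its body, which held 1.43 and 1.16 kb in OPC and 1.11 and 1.07 kb in OL. The median over all genes tested was −0.24, and −0.13 without scaling, where the same 9 calls held.

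The calls rest on a fit with 1 residual degree of freedom. The fits that leave out a list also leave out the cell line term, so they differ from the main fit in both. Without OPC H3K27ac of 129O1, or without that of EpiSC5, limma called 0 genes of all those tested (2769 and 2451 at an unadjusted p under 0.05), and the adjusted p of the 6 genes lay between 0.158 and 0.192 with changes of 1.10 to 2.82. Without OL H3K27ac of EpiSC5, 5 genes were called and Slc31a2 was not (limma adjusted p = 0.0511).

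**Figure D4:**
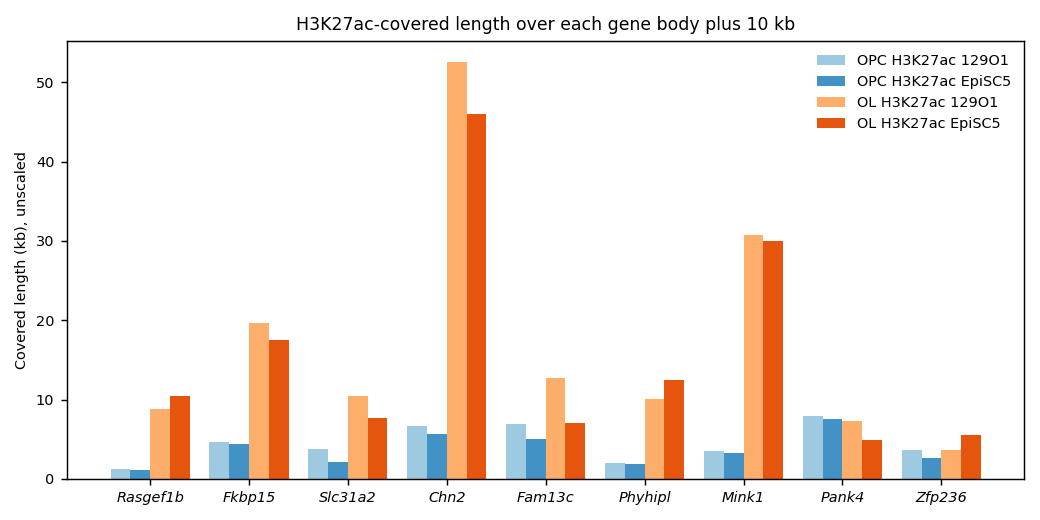
H3K27ac-covered length in kb (vertical axis, unscaled) over the body plus 10 kb of each gene, with 1 bar for each of the 4 lists. Both OL bars stand above both OPC bars at Rasgef1b, Fkbp15, Slc31a2, Chn2, Fam13c, Phyhipl and Mink1, with the highest at Chn2 (52.6 and 46.0 kb), and below them at Pank4.

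**Figure D5:**
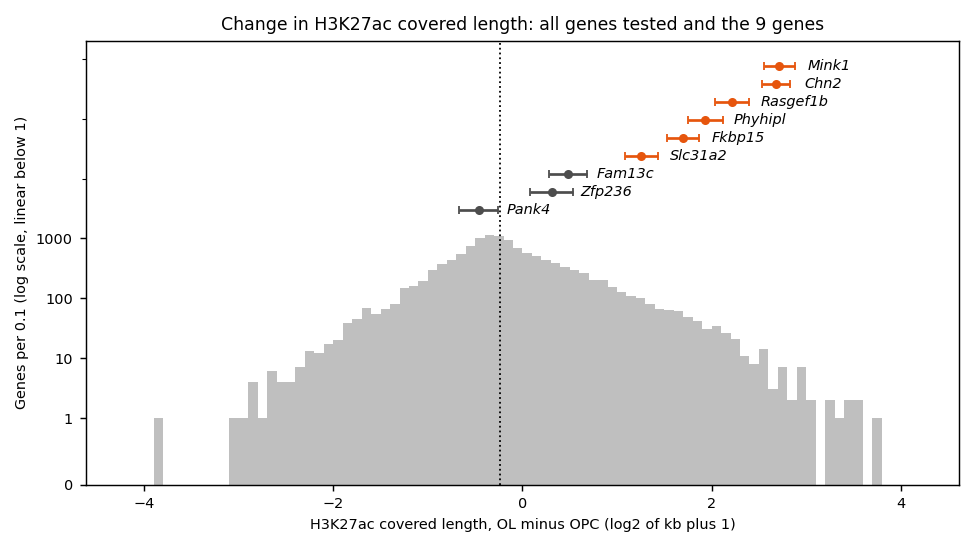
Difference between OL and OPC in H3K27ac-covered length, as log2(kb + 1), for 12459 genes (grey histogram, log axis, dotted line at the median of −0.24) and the 9 genes (points with ± 1 limma SE, orange where called wider). The height of the points only separates the labels. The 6 called genes lie between 1.26 and 2.71, and the others between −0.46 and 0.48.

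The calls over all genes can be set beside their OL SOX6. Of 80 genes tested with 1 to under 5 kb, 38 widened (47.5%) and 2 narrowed. Of 3288 with some SOX6 but under 1 kb, 549 widened (16.7%), and of 9075 with none, 964 did (10.6%) while 18.4% narrowed. Longer genes can hold more of both marks, and the groups were not matched for length.

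Genes beside the stretches were described in the same way. Chrne and 4930544D05Rik, which lie within the Mink1 stretch and share its window, had 0 kb of H3K27ac in both OPC lists and 7.97 and 6.25 kb in OL of 129O1 and EpiSC5 (limma adjusted p = 0.00195). Pld2, a phospholipase D gene upstream of Mink1, widened by 0.68 ± 0.17 (limma adjusted p = 0.0329), in a window that takes in the start of Mink1. Near Pank4, Plch2 widened by 1.27 ± 0.19 and Tnfrsf14 by 2.09 ± 0.22 (limma adjusted p = 0.00833 and 0.00387), while Hes5, under the stretch itself, shared the values of Pank4 and was not called. Mbp, at the Zfp236 stretch, rose from 6.17 and 4.32 kb to 23.7 and 37.6 kb (2.20 ± 0.25, limma adjusted p = 0.00441). Slc31a1, which encodes the main copper importer and starts beside Fkbp15, had 2.40 and 2.96 kb in OPC and 3.21 and 4.02 kb in OL and was not called.

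Gene families of the members gave mixed counts, to be read against the 12.5% of all genes tested that widened and the 16.4% that narrowed. Each count includes the members the family was built around, whose calls are given above and add nothing here. Rap2 GTPases, their Rasgef1 exchange factors and their Ste20-type kinases had 5 of 9 tested genes widened, Rasgef1b and Mink1 among them, and 1 narrowed. The other three were Rasgef1c (1.36 ± 0.18), Tnik (0.84 ± 0.16) and Map4k4 (0.69 ± 0.12). Of the GTPases themselves, Rap2b narrowed (−0.95 ± 0.17), and Rap2a (0.28 ± 0.17) and Rap2c (−0.04 ± 0.21) were not called. Map4k4 also held 3.44 kb of OL SOX6 in all, beside 4.24 and 3.02 kb in OPC.

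Among 8 GTPase-activating proteins for Rac, 2 widened, Chn2 and Arhgap22 (0.87 ± 0.18), and 2 narrowed, Srgap2 (−1.66 ± 0.20) and Chn1 (−0.89 ± 0.20), the closest relative of Chn2. Of 13 copper-handling genes tested, Slc31a2 widened, and Atp7a (−1.19 ± 0.24) and Cox17 (−0.75 ± 0.19) narrowed. Fkbp15 was the 1 call of 10 genes of the WASH complex and endosomal sorting. Of 9 genes of coenzyme A synthesis 0 were called by limma, with 1 lower at an unadjusted p under 0.05. Among 4 paralogues of Fam13c and Phyhipl, both included, Phyhipl widened and Fam13b narrowed (−0.67 ± 0.17). With equal numbers of peaks per list, Atp7a, Cox17 and Fam13b were no longer called, and Fam13b was also lost without scaling.

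Over all genes, SOX6 lay more at starts than at 3′ ends. For 5918 genes of at least 30 kb, SOX6-covered length within 10 kb of the 3′ end was 0.539 (129O1) and 0.596 (EpiSC5) times that within 10 kb of the start in OPC. In OL the ratio was 0.759. Without the genes with at least 5 kb and their surroundings, it was 0.474 in OL, and 0.532 and 0.594 in OPC.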

How the data were processed

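ChIP-seq peak lists of 7 samples were used, 1 per library. Per the submitters' processing notes, the authors used mm10 with Bowtie2 2.3.2, Trim Galore 0.3.1, deepTools, bedtools and Picard. The peak caller is not given in the sources used here. The deposited lists have no header: H3K27ac is in broad-peak and SOX6 in narrow-peak layout. The deposited score, the deposited fold enrichment (a ratio), the deposited −log10 p and −log10 q and the deposited summit served to rank, filter or describe peaks within a list.

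Gene positions and promoters came from RefSeq (GRCm38.p6), and 8 of the 9 genes had a promoter and strand there. The members and gene lists were chosen with earlier results of these data known. Covered length was the union of peaks over the body plus 10 kb. H3K27ac lists were scaled to equal totals, and log2(kb + 1) was fitted for genes averaging 1 kb or more, with limma 3.58.1 (R 4.3.3; trend, state and cell line; prior df 5.04, residual df 1). A change on this scale understates that of genes with little coverage. OPC and OL of a line share that line, and their deviations correlated at 0.273 across genes. Stretches were joined over gaps of up to 5 kb, and an overlap means at least 1 bp. Named genes are the members and neighbours within 50 kb that hold part of a stretch or a call. Called genes of the families and genes at the edges of the range are also named. Slc31a1, Rap2a, Rap2c, Pdgfra and Csf1r were chosen after their values were seen. The alternatives changed the pseudocount, filter, scaling, window, peaks used, gap, overlap, model and lists. No genome was used, so the bases under the stretches are not shown.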

Additional observations from a re-analysis of the deposited data

Results flagged for a closer look

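The H3K27ac change of Zfp236 between OPC and OL went in opposite directions in the cell lines: −0.05 in 129O1 and 0.67 in EpiSC5 on the log2(kb + 1) scale. The difference between the lines was not tested. In OL of EpiSC5 the widest H3K27ac peak that reached into the window of Zfp236, 7618 bp, lay wholly outside its body, at Mbp. Within the body alone, coverage was 1.47 kb (129O1) and 1.53 kb (EpiSC5) in OPC, and 2.80 and 2.72 kb in OL.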

How the results depend on the processing

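The 6 widened genes kept a positive change under all alternatives run, and 6 were called with another pseudocount, a mean of at least 3 kb, no scaling, equal numbers of peaks, and the body or the body plus 50 kb. With no filter limma called 0 genes wider and 0 narrower (4814 at an unadjusted p under 0.05), 0 of the 6 among them. With the higher-scoring 50% of each list it called 129 wider and 43 narrower, and 3 of the 6: Rasgef1b (2.02, limma adjusted p = 0.0513), Phyhipl (1.45, 0.0516) and Slc31a2 (1.30, 0.0569) were lost. Body plus 50 kb gave 2383 wider and 3659 narrower. Against 2041, narrower genes numbered 1207 at a mean of at least 3 kb, 1143 with no scaling, 1230 with equal numbers of peaks and 1014 over the body alone. Without scaling, 57.7% of calls were wider, against 43.4%. Leaving out 1 list gave 0 to 1205 wider genes, 0 to 2288 narrower genes and 0 to 6 of the members. Without the cell line as a replicate block, 1234 genes were wider and 1368 narrower, and the same 6 members were called. The fits that left out a list had no such block either. Over the body plus 50 kb, Fam13c (1.02, limma adjusted p = 0.00279) and Zfp236 (1.29, 0.00269) were called wider, the latter window taking in part of Mbp, and Pank4 stood at 0.034. Zfp236 stood at −0.45 with the higher-scoring 50% of each list, at −0.03 without OL of EpiSC5 and at −0.052 without replicate 2 (EpiSC5), against 0.669 without replicate 1.

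The median SOX6 length of the 9 genes was 0.812 kb in OPC of 129O1, and 1.44 kb over the body plus 50 kb, 0.356 kb with the higher-scoring 50% and 0.304 kb with equal numbers of SOX6 peaks. In OPC of EpiSC5 it was 0.493 kb, and 0.261 kb over the body, 0.818 kb over the body plus 50 kb and 0 with equal numbers. In OL it was 7.27 kb, and 2.73 kb over the body, 8.60 kb over the body plus 50 kb and 6.015 kb with the higher-scoring 50%. The share of the stretches under OPC H3K27ac was 4.43% of bases in each line, and 5.56% of peaks by either overlap rule, 5.37% with the higher-scoring 50% and 6.15% without the Mbp stretch, a setting chosen after seeing the data. Under OL H3K27ac of 129O1 it was 11.9% of bases and 18.9% of peaks touched. Under OL H3K27ac of EpiSC5 it was 20.7%, and 6.70% with the higher-scoring 50% and 7.52% without the Mbp stretch. The ratio of SOX6 at 3′ ends to starts was 0.361, 0.43 and 0.529 in OPC of 129O1, OPC of EpiSC5 and OL within 5 kb, and 0.474 in OL without genes with at least 5 kb, also settings chosen after seeing the data. The cause of these shifts was not tested. OL SOX6 has 1 list, so the stretches have no replicate, and without read counts depth cannot be weighed.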
